A study of Homo sapiens with 60 samples.

Results

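HT29 cells, a human colorectal adenocarcinoma line, were compared after 24 h with hot-water extracts of 2 medicinal plants, each given at the high dose of 500 µg/mL. The first extract was Cimicifugae Rhizoma, the rhizome of a plant of the black cohosh group (called cimicifuga here), and the second was Citri Unshius Pericarpium, dried mandarin peel (called citrus peel). The 6 libraries, 3 per extract, were taken by their labels and sample codes from 60 in the series, and 16325 genes were tested between them. Both extracts belong to the same set of sample codes (set 5), which also holds cimicifuga and citrus peel at 100 µg/mL (medium dose) and 20 µg/mL (low dose), 3 libraries each. The fit used all 18 libraries of that set with the replicate number as a block, so that no comparison crosses into another set of codes. Extracts other than these were not analysed here, and vehicle (DMSO, code set B1) is given as a level only. The labels give 500 µg/mL for both extracts. The series' design text mentions a reduced top dose for extracts that inhibited growth, and no growth measurement was used here. All cells came from 1 cancer cell line, and the labels do not say whether replicates came from separate cultures. The p-values therefore reflect only how these libraries scattered, which may be technical scatter.

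An extract of this kind holds many small molecules, and intestinal cells meet such compounds with a few well-described transcriptional programs. The transcription factor NRF2 is released from its inhibitor KEAP1 by reactive (electrophilic) compounds and switches on genes that make glutathione, recycle thioredoxin, supply NADPH and reduce quinones and aldehydes. The aryl hydrocarbon receptor binds planar aromatic molecules and induces CYP1 enzymes, and the integrated stress response, run by ATF4, raises amino acid synthesis and uptake when translation initiation is slowed.

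The 6 high-dose libraries held 27.59 to 32.26 M counts, and the 18 libraries of the set 14.92 to 40.05 M. Markers of colorectal epithelium (12 genes, among them EPCAM, KRT8, KRT18 and CDH1) summed to 11240 to 12260 CPM (counts per 1e6 counts of a library) in cimicifuga and 11690 to 12540 CPM in citrus peel, and none of the 12 was at 0. Over the 6 libraries KRT8 had 5868 to 6737 CPM and KRT18 3100 to 3468 CPM. EPCAM, KRT19, KRT20, CDH1, VIL1 and LGALS4 lay between 164.1 and 606.1 CPM. CDX1, CDX2, CEACAM5 and GPA33 were low, between 0.649 and 7.8 CPM. The 5 markers of fibroblasts summed to 1.38 to 1.57 CPM in cimicifuga and 1.36 to 1.68 CPM in citrus peel, and the 4 markers of endothelium to 1.54 to 2.26 CPM and 1.58 to 2.24 CPM in the same order. COL1A2 and KDR were at 0 in all 6 libraries. In the leukocyte list LYZ, also made by gut epithelium, gave 1633 to 1723 CPM in cimicifuga and 1628 to 1736 CPM in citrus peel. CD68 had 7.21 to 8.78 CPM in cimicifuga and 6.11 to 9.38 CPM in citrus peel. CD79A had 0.0921 to 0.182 CPM and 0.035 to 0.217 CPM in the same order, and PTPRC and CD3E lay under 0.1 CPM. The first principal component of the 18 libraries (18.7% of the variance) separated all 6 libraries with replicate number 3 from the rest, and the second (11.7%) held the 3 cimicifuga high-dose libraries at its upper end. The replicate-3 libraries had 67.4 to 114 CPM of RN7SL2, a signal recognition particle RNA, against 3.45 to 9.94 CPM in the other 12. The replicate block was fitted to take up such a difference. Without replicate 3 of every group 427 genes passed the test below, and 320 of them were among the 569 called with all libraries.

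At the high dose 266 genes were higher and 303 lower in cimicifuga than in citrus peel (edgeR with quasi-likelihood F-tests, adjusted p under 0.05), which is 3.49% of the genes tested. Fold changes are given as log2 differences, cimicifuga minus citrus peel, with their standard error, so that positive values mean higher in cimicifuga. The differences were small: the median size among called genes was 0.24, 69 reached 0.5 and 14 reached 1. The spread was small too, with a biological coefficient of variation of 3.71%, and in 258 of the 266 higher and 294 of the 303 lower genes the 3 libraries of one extract lay beyond all 3 of the other. Of all genes tested 16.7% were separated in this way, 8.17% with cimicifuga above and 8.53% with it below. The count depended on single libraries: without replicate 1 of every group it was 173, without replicate 2 it was 183, and without single high-dose libraries it lay between 315 and 432. It was 315 without citrus peel 1, 326 without cimicifuga 1 and 318 without citrus peel 3, while the other 3 single libraries moved it by less than 1.5 times. At the medium dose 2 genes passed (0.0123%) and at the low dose 0, with 719 genes at an unadjusted p under 0.05 in edgeR at the low dose and 0 calls by DESeq2. The test of the change itself, the difference at the high dose minus that at the low dose, called 63 genes in the positive direction (0.386%) and 66 in the negative one (0.404%), 0.79% of genes in all.

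Among the 15 largest rises by the naming rule were 4 aldo-keto reductases, ALDH3A1, HMOX1 and 3 genes of glutathione turnover. AKR1C1, an aldo-keto reductase that reduces ketosteroids and other carbonyls (ENSG00000187134, chr10:4963253-4983283, plus strand, GRCh38), had 29.4, 26.6 and 28.6 CPM in the 3 cimicifuga libraries, against 13.7, 14.1 and 11.5 CPM in citrus peel. Its neighbour AKR1C2 (chr10:4987400-5018031, minus strand) had 22.3, 22.4 and 23.9 CPM in cimicifuga and 11.2, 11.2 and 9.54 CPM in citrus peel. Every cimicifuga library lay above every citrus peel library in both genes, with log2 differences of 1.10 ± 0.08 for AKR1C1 (edgeR adjusted p = 1.05e-07) and 1.10 ± 0.07 for AKR1C2 (edgeR adjusted p = 2.08e-09). AKR1C3 followed with 0.77 ± 0.07 (edgeR adjusted p = 1.75e-06). The AKR1C genes are near-identical copies between which RSEM shares reads, so their single values are less certain than those of AKR1B10. AKR1B10, which reduces retinal and reactive aldehydes, had 200.7, 197 and 190.1 CPM in cimicifuga and 125, 120.4 and 105 CPM in citrus peel (0.75 ± 0.04, edgeR adjusted p = 5.38e-10). ALDH3A1, which oxidises aldehydes, had 47.1, 50.3 and 52.5 CPM in cimicifuga and 22.4, 26.8 and 28.3 CPM in citrus peel (0.96 ± 0.05, edgeR adjusted p = 3.93e-10). None of these groups overlapped, and the calls of these 5 genes held without any single library. Of 8 aldo-keto reductases tested 4 were higher and 0 lower, against 1.63% and 1.86% of all genes. Their median was 0.55, against -0.0021 over all genes. AKR1A1, the widely expressed aldehyde reductase of the family, had 69.5, 67.6 and 70.0 CPM in cimicifuga and 65.2, 71.5 and 68.2 CPM in citrus peel, and these overlapped (0.02 ± 0.04, edgeR adjusted p = 0.915). Of 14 aldehyde and alcohol dehydrogenases 4 were higher (ALDH3A1, ALDH1A3, ALDH3A2 and ALDH1A1) and 0 lower. The 15 largest rises also held TCN1, a vitamin B12 carrier (0.78 ± 0.13, edgeR adjusted p = 0.0012), and PANX2, a pannexin channel (0.78 ± 0.17, edgeR adjusted p = 0.00889). The PANX2 call was lost without citrus peel 1, citrus peel 2 or cimicifuga 2, with an adjusted p up to 0.0901, and that of CYP4F3, a fatty acid hydroxylase (0.75 ± 0.16, edgeR adjusted p = 0.00933), without citrus peel 1 or cimicifuga 1 (up to 0.0979).

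**Figure D1:**
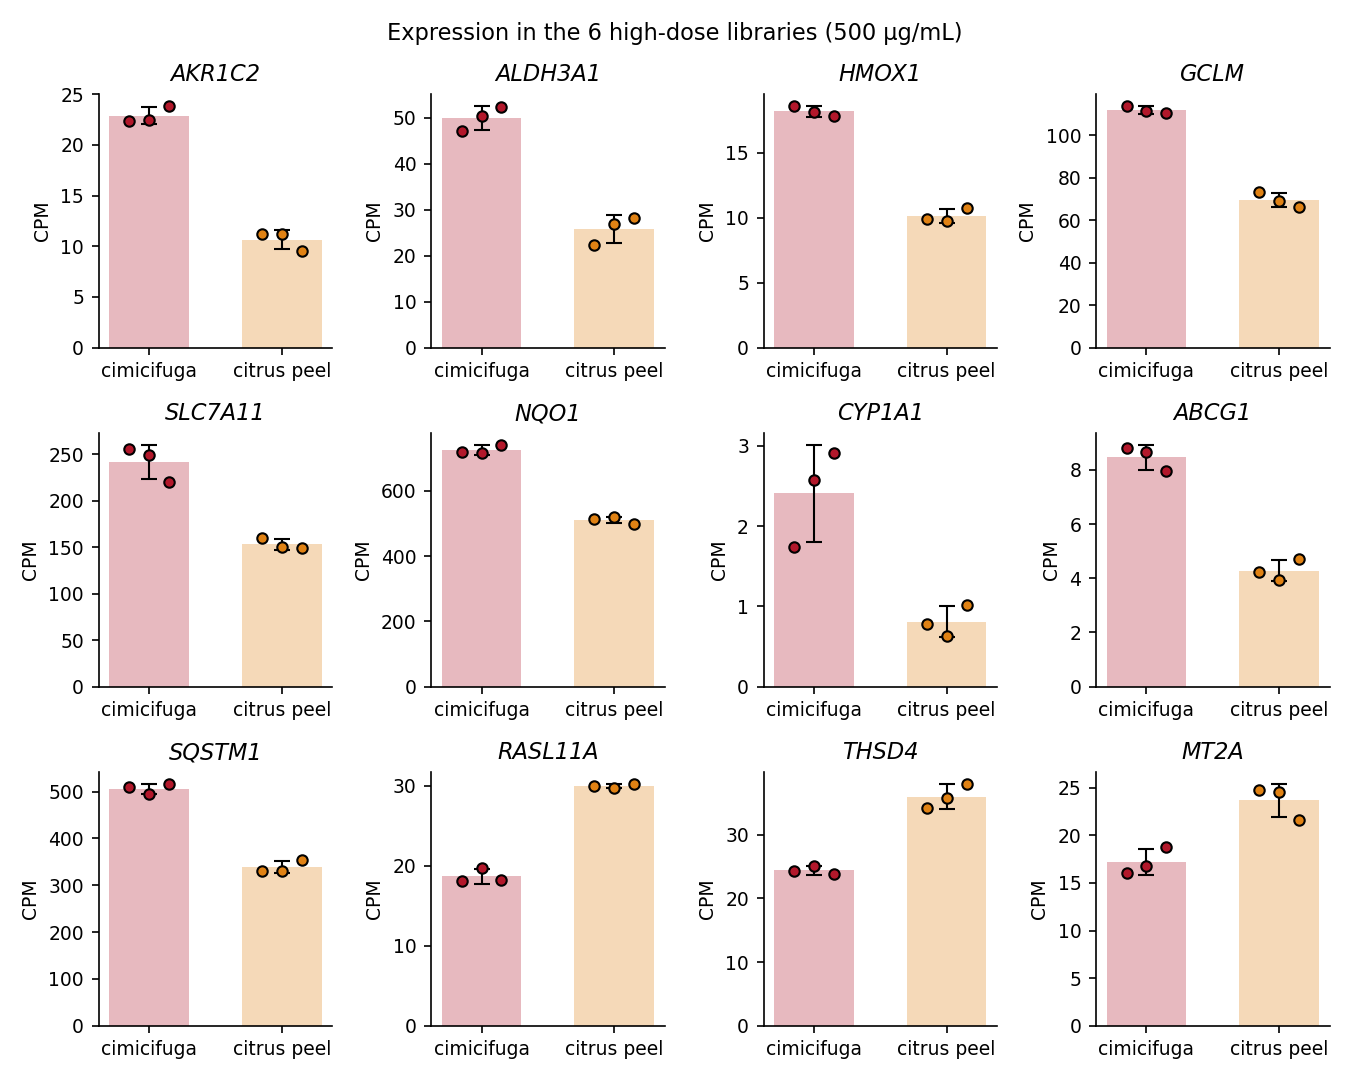
Expression (CPM, counts scaled to library size, linear axis from 0) of 12 genes in the 6 libraries treated with 500 µg/mL, cimicifuga on the left and citrus peel on the right of each panel; dots are libraries, bars means and error bars SD (n = 3). In all 12 genes the 3 libraries of one extract lay beyond all 3 of the other, with RASL11A, THSD4 and MT2A lower in cimicifuga.

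Genes of glutathione synthesis and thiol reduction moved the same way. Of 14 NRF2-linked genes of glutathione metabolism 8 were higher and 1 was lower (ABCC1), and of 12 of thioredoxin and NADPH supply 9 were higher and 0 lower, against 1.63% higher and 1.86% lower among all genes. The list medians were 0.24 and 0.31, and SLC7A11 stands in both lists. All gene lists used here were chosen with earlier results of these data known. Their counts therefore describe the members and are not a test of a pathway. GCLM, the modifier subunit of glutamate-cysteine ligase, which makes the first bond of glutathione, had 114, 111 and 110.4 CPM in cimicifuga and 73.0, 69.1 and 66.3 CPM in citrus peel (0.69 ± 0.04, edgeR adjusted p = 8.8e-10). The catalytic subunit GCLC differed by 0.46 ± 0.04 (edgeR adjusted p = 5.16e-07). SLC7A11, the exchanger that imports the cystine needed for glutathione, had 255, 249.6 and 220.4 CPM in cimicifuga and 160.0, 150.3 and 149 CPM in citrus peel, so that its lowest cimicifuga library stood well above its highest citrus peel library (0.66 ± 0.04, edgeR adjusted p = 8.8e-10). CHAC1, which degrades glutathione, was also higher, at 4.37, 4.60 and 5.07 CPM in cimicifuga and 2.58, 2.87 and 2.41 CPM in citrus peel (0.84 ± 0.12, edgeR adjusted p = 0.000151). GPX2, the glutathione peroxidase of the gut epithelium, differed by 0.30 ± 0.03 and MGST1, a microsomal glutathione transferase, by 0.20 ± 0.04. GSR, which regenerates reduced glutathione, had 0.17 ± 0.04, a call lost without citrus peel 1 or cimicifuga 1 (edgeR adjusted p up to 0.0702). ABCC1, an exporter of glutathione conjugates, was lower, at -0.13 ± 0.03 (edgeR adjusted p = 0.0249), a call lost without replicate 1 or 3 of either extract, with an adjusted p up to 0.129.

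In the thioredoxin and NADPH list, NQO1, a quinone reductase, had 718, 716 and 742 CPM in cimicifuga and 513, 519.7 and 499.5 CPM in citrus peel (0.51 ± 0.03, edgeR adjusted p = 3.04e-09). TXNRD1, thioredoxin reductase of the cytosol, had 509.7, 496 and 483 CPM in cimicifuga and 404, 376 and 354 CPM in citrus peel (0.39 ± 0.03, edgeR adjusted p = 7.07e-07). In both genes the gap between extracts was wider than the range within either. OSGIN1, an NRF2 target named for growth inhibition under oxidative stress, differed by 0.62 ± 0.07, and SRXN1, sulfiredoxin, by 0.25 ± 0.04. The NADPH-producing enzymes ME1 (0.34 ± 0.04) and PGD (0.18 ± 0.03) and the pentose phosphate enzyme TKT (0.27 ± 0.04) were all higher. All 9 calls of this list held without any single library, as did 7 of the 9 calls of the glutathione list.

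A sequence feature shared by several of these genes was the core of the antioxidant response element, TGACNNNGC, to which NRF2 binds with small MAF proteins. It was searched on both strands of RefSeq promoter windows (GRCh38.p14, 250 bases before to 50 after a gene's start, 300 bases in all), where 13.6% of 27305 promoters held it. The NRF2, aldo-keto reductase and heme and iron lists had 47 tested genes, of which 37 had a promoter in the table and 9 held the core. Of the 19 called genes with a promoter it was found in 7, namely GCLM, GPX2, TXNRD1, ME1, PGD, FECH and ABCB6. A match is a description of these letters, not evidence of binding. The promoters of 4 of them are given 5′ to 3′ on the gene's strand because they are called genes of glutathione synthesis, peroxide reduction, thioredoxin reduction and NADPH supply that hold the core, with the core in capitals on either strand.
GCLM, chr1:93909381-93909680, minus strand: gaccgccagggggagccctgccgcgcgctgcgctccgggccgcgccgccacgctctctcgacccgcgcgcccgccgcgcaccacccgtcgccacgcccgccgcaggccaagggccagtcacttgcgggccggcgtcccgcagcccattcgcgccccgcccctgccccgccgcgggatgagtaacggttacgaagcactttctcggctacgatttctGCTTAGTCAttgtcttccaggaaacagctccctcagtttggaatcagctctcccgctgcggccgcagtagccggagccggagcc
GPX2, chr14:64942696-64942995, minus strand: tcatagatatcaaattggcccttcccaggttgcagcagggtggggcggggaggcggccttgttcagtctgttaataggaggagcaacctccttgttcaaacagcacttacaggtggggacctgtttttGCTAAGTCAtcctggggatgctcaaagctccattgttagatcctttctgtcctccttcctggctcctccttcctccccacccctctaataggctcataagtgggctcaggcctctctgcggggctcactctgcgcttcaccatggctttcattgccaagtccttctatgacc
TXNRD1, chr12:104215529-104215828, plus strand: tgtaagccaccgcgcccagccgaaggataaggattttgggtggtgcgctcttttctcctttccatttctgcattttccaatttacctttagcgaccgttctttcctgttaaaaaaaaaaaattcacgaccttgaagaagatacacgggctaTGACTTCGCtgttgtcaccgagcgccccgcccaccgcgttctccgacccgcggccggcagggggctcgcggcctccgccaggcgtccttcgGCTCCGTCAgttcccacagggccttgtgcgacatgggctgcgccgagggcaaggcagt
ME1, chr6:83431002-83431301, minus strand: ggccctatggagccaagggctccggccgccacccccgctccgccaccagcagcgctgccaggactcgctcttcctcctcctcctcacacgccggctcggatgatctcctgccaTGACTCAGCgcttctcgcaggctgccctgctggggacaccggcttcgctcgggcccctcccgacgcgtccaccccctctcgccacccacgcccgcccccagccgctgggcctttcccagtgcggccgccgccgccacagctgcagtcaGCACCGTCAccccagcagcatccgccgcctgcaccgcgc
In GCLM the match began 34 bases before the start, in GPX2 122 bases before it, in TXNRD1 99 and 8 bases before it, and in ME1 137 bases before and 11 bases after it.

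Of 15 genes of iron storage and heme turnover 6 were higher, 0 lower and 9 not called, against 1.63% higher among all genes. The list median was only 0.07. The log2 difference was positive in 11 of the 15, and the lowest was -0.50. HMOX1, heme oxygenase 1, which opens heme and frees its iron, had 18.7, 18.2 and 17.8 CPM in cimicifuga and 9.90, 9.80 and 10.8 CPM in citrus peel (0.85 ± 0.07, edgeR adjusted p = 1.05e-07). The ferritin light chain FTL had 3509, 3517 and 3550.0 CPM in cimicifuga, against 2265, 2505 and 2431 CPM in citrus peel (0.56 ± 0.04, edgeR adjusted p = 1.05e-07). The ferritin heavy chain FTH1, the subunit that oxidises iron for storage, had 4887, 5385 and 5729 CPM in cimicifuga and 3387, 3886 and 4092 CPM in citrus peel (0.49 ± 0.04, edgeR adjusted p = 9.97e-07). Both ferritin chains were separated between the extracts, and within each replicate number cimicifuga was above citrus peel. FECH, which inserts iron into protoporphyrin to form heme (0.42 ± 0.05), and ABCB6, a porphyrin transporter (0.36 ± 0.05), were higher as well. SLC48A1, a heme transporter, had 0.21 ± 0.04, a call lost without cimicifuga 1 (edgeR adjusted p = 0.0533).

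Targets of the aryl hydrocarbon receptor were higher in cimicifuga in 7 of the 9 tested and lower in 0, against 1.63% and 1.86% of all genes. Their median was 0.39. CYP1A1, the classical target and an oxidiser of polycyclic aromatic compounds, had the highest log2 difference of this list but few counts, with 1.74, 2.58 and 2.92 CPM in cimicifuga and 0.776, 0.63 and 1.01 CPM in citrus peel (1.57 ± 0.27, edgeR adjusted p = 0.00133). CYP1B1 had 81.8, 82.7 and 81.0 CPM in cimicifuga and 61.5, 59.8 and 65.8 CPM in citrus peel (0.39 ± 0.04, edgeR adjusted p = 1.18e-06). The lowest cimicifuga library exceeded the highest citrus peel library in both. UGT1A6, a glucuronosyltransferase for phenols, differed by 0.47 ± 0.04, although its exons overlap those of the other UGT1A genes and reads are shared among them. TIPARP, an ADP-ribosyltransferase that dampens the receptor (0.21 ± 0.04), ALDH1A3 (0.37 ± 0.05), ALDH3A1 and NQO1 made up the rest, and 3 of the 7 (ALDH3A1, ALDH1A3 and NQO1) are also counted in the lists above. AHRR, the receptor's repressor, did not pass (-0.07 ± 0.09, edgeR adjusted p = 0.806). All 7 calls held without any single library.

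The core of the xenobiotic response element, GCGTG, was present on either strand in 36.3% of all promoters. It was found in all 7 of the tested targets that had a promoter in the table, 5 of them called (CYP1A1, TIPARP, NQO1, UGT1A6 and ALDH1A3). The promoters of CYP1A1 and UGT1A6 are shown because these are the classical oxidising and conjugating enzymes among the called targets, with the core in capitals.
CYP1A1, chr15:74725479-74725778, minus strand: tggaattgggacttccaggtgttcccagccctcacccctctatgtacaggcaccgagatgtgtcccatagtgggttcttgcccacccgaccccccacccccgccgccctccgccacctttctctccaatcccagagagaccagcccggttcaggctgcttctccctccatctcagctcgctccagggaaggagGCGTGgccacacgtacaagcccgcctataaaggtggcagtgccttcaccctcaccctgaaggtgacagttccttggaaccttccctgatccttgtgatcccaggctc
UGT1A6, chr2:233691452-233691751, plus strand: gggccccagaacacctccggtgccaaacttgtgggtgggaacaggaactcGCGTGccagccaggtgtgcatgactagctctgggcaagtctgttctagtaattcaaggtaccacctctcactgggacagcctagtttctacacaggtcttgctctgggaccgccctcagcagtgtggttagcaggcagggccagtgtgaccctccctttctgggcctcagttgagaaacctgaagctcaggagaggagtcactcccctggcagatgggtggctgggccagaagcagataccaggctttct
The match began 57 bases before the start in CYP1A1 and 200 bases before it in UGT1A6.

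**Figure D2:**
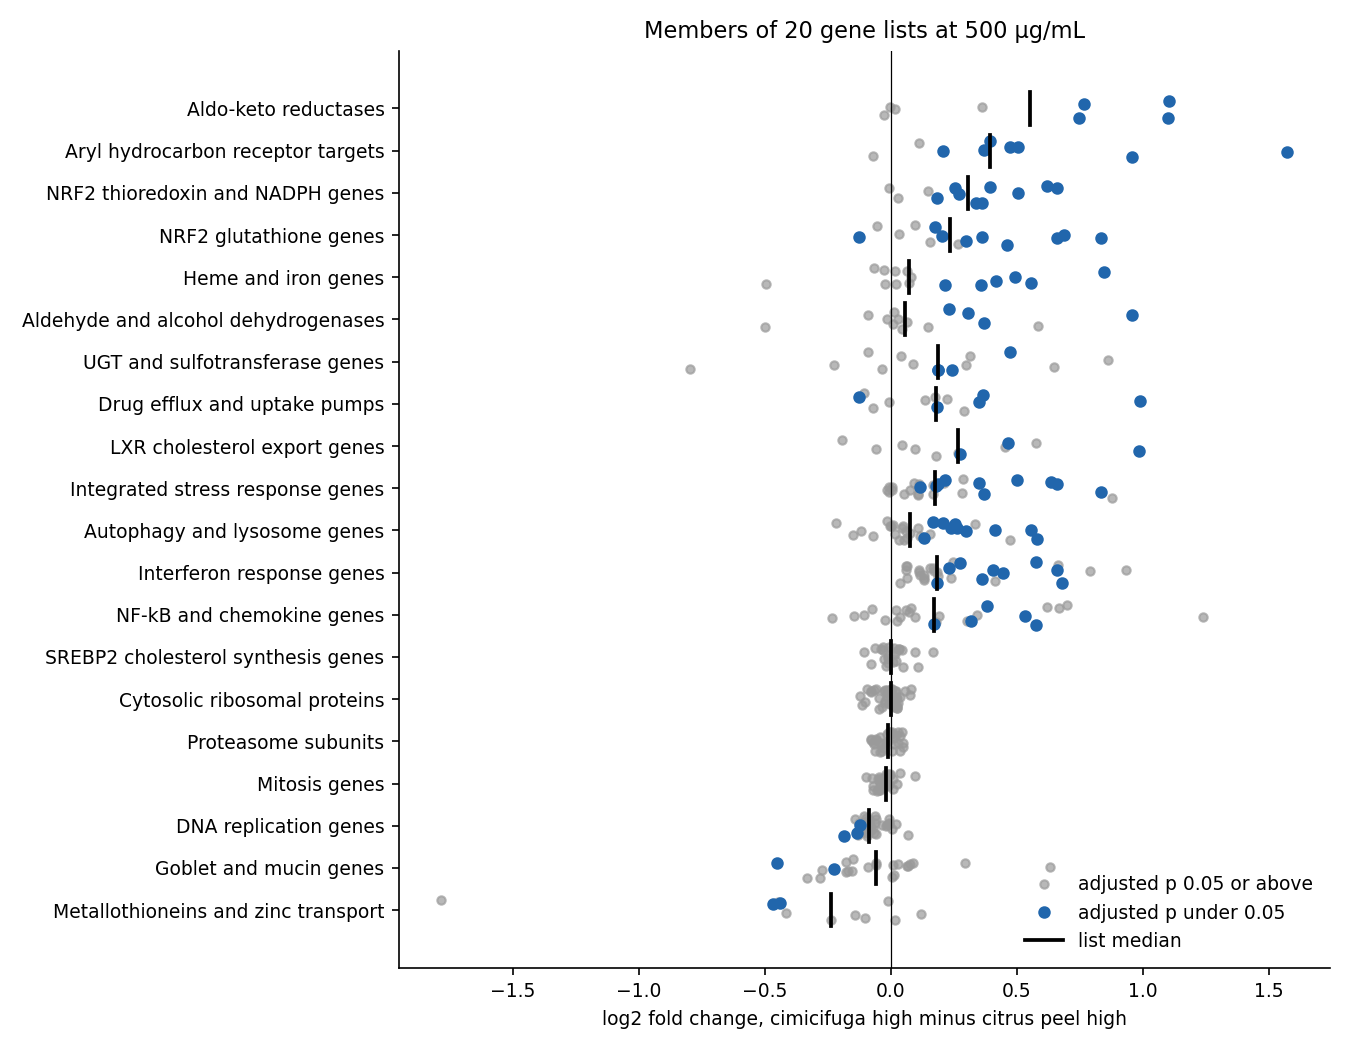
Log2 fold change (cimicifuga high minus citrus peel high, horizontal axis) of each tested member of 20 gene lists; blue dots have an edgeR adjusted p under 0.05, grey dots do not, and black bars are list medians. The aldo-keto reductase, aryl hydrocarbon receptor and both NRF2 lists had medians of 0.55, 0.39, 0.31 and 0.24, while the ribosomal protein, proteasome and cholesterol synthesis lists stood close to 0.

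Other groups of drug handling and lipid export held fewer calls. Among all genes 1.63% were higher and 1.86% lower. Of 14 UGT and sulfotransferase genes 4 were higher and 0 lower, all 4 of them UGT1A genes, and UGT1A1 was lost without citrus peel 1, cimicifuga 1 or citrus peel 2 and UGT1A8 without citrus peel 1 or cimicifuga 2 (edgeR adjusted p up to 0.0605 and 0.074). Of 12 efflux and uptake pumps 4 were higher and 1 lower. ABCG2, the efflux pump of the apical membrane, had 98.1, 94.7 and 101 CPM in cimicifuga and 75.9, 81.2 and 73.5 CPM in citrus peel (0.35 ± 0.04, edgeR adjusted p = 2.11e-05), the one pump call that held without any single library. ABCG1, which moves cholesterol to lipoproteins and is a target of the liver X receptor, had 8.81, 8.66 and 7.95 CPM in cimicifuga and 4.22, 3.92 and 4.72 CPM in citrus peel (0.99 ± 0.09, edgeR adjusted p = 8.87e-07). All 3 cimicifuga libraries lay well above all 3 of citrus peel. In the liver X receptor list 3 of 11 were higher and 0 lower, the others being ABCA1 (0.47 ± 0.10, edgeR adjusted p = 0.0123) and MYLIP, a ubiquitin ligase for the LDL receptor (0.27 ± 0.06, edgeR adjusted p = 0.0147). The call of ABCA1 was lost without cimicifuga 1, cimicifuga 2, citrus peel 2 or citrus peel 3 (adjusted p up to 0.0971) and that of MYLIP without citrus peel 1, cimicifuga 1 or citrus peel 3 (up to 0.111). None (0) of 24 cholesterol synthesis genes under SREBP2 passed in edgeR, and their median was 0.0018. Among 24 fatty acid synthesis genes 4 were higher, including SCD, the desaturase that makes oleic acid (0.25 ± 0.04, edgeR adjusted p = 0.000787), and 0 were lower.

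Genes of the integrated stress response were higher in 10 of 28 cases and lower in 0, against 1.63% and 1.86% of all genes. Their median was 0.17. ASNS, asparagine synthetase, had 78.8, 74.5 and 76.6 CPM in cimicifuga and 54.3, 53.2 and 54.6 CPM in citrus peel (0.50 ± 0.04, edgeR adjusted p = 1.05e-07). GDF15, a secreted stress hormone, had 51.8, 58.3 and 64.4 CPM in cimicifuga and 34.6, 37.0 and 40.5 CPM in citrus peel (0.64 ± 0.06, edgeR adjusted p = 6.5e-07). The groups did not overlap in either gene. TRIB3, a pseudokinase that feeds back on ATF4, differed by 0.37 ± 0.05, and PSAT1, of serine synthesis, by 0.18 ± 0.03. CHAC1 and SLC7A11 belong to this list too. ATF4 itself had 241, 252 and 262 CPM in cimicifuga and 229.9, 235 and 244 CPM in citrus peel and did not pass (0.09 ± 0.03, edgeR adjusted p = 0.0765). DDIT3, another transcription factor of the response, had 0.29 ± 0.09 (edgeR adjusted p = 0.0768). Of the 10 calls 6 held without any single library, and of 24 folding genes of the endoplasmic reticulum 1 was higher and 1 lower. HSPA5, the main chaperone there, was the lower one, at 393, 381 and 386 CPM in cimicifuga and 432, 433 and 400.1 CPM in citrus peel (-0.12 ± 0.03, edgeR adjusted p = 0.039), a call lost without replicate 1 or 2 of either extract (adjusted p up to 0.201).

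Autophagy and lysosome genes were higher in 10 of 31 and lower in 0, against 1.63% and 1.86% of all genes. SQSTM1, the cargo receptor p62 that also binds KEAP1, had 509, 494 and 515 CPM in cimicifuga and 331, 331 and 354 CPM in citrus peel (0.58 ± 0.03, edgeR adjusted p = 8.8e-10). GABARAPL1, an ATG8 protein of the autophagosome membrane, had 8.51, 8.13 and 8.49 CPM in cimicifuga and 6.05, 5.39 and 5.63 CPM in citrus peel (0.56 ± 0.09, edgeR adjusted p = 0.000585). FLCN (0.30 ± 0.05) and RRAGC (0.24 ± 0.04), regulators of the mTORC1 kinase at the lysosome, and NEU1, a lysosomal sialidase (0.26 ± 0.04), also held without any single library, as 5 of the 10 calls did. The list median was 0.08.

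Of 31 interferon response genes 9 were higher, 0 lower and 22 not called, against 1.63% higher and 1.86% lower among all genes. All 31 had a positive log2 difference, where 49% of all genes tested were positive, and the median was 0.18. IFIT3, an antiviral protein of the IFIT family, had 12.5, 12.7 and 11.5 CPM in cimicifuga and 8.29, 9.48 and 9.19 CPM in citrus peel (0.44 ± 0.07, edgeR adjusted p = 0.000524). IFIH1, the cytosolic sensor MDA5, had 11.9, 12.7 and 12.2 CPM in cimicifuga and 9.68, 9.80 and 9.12 CPM in citrus peel (0.36 ± 0.06, edgeR adjusted p = 0.00148). IFIT3 and IFIH1 were the 2 of the 9 calls that held without any single library. IFIT1 (0.66 ± 0.13, edgeR adjusted p = 0.00555) was lost without cimicifuga 2 or citrus peel 3 (up to 0.0586), and OAS2 (0.68 ± 0.18, edgeR adjusted p = 0.04) without any of these 6 libraries other than cimicifuga 3 (up to 0.233). Of 25 NF-kB and chemokine genes 5 were higher, 0 lower and 20 not called. The calls of ICAM1 and LCN2 held without any single library. CXCL1 was lost without any one of the 6, BIRC3 without any one other than citrus peel 3, and RELB without replicate 1 or 2 of either extract, with an edgeR adjusted p up to 0.177, 0.215 and 0.178. ICAM1, an adhesion molecule for leukocytes, had 6.01, 5.83 and 5.91 CPM in cimicifuga and 4.07, 4.16 and 4.02 CPM in citrus peel (0.53 ± 0.09, edgeR adjusted p = 0.0012).

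In several lists no gene passed: 0 of 44 ribosomal proteins, 0 of 31 proteasome subunits, 0 of 28 mitosis genes and 0 of 19 heat shock genes in edgeR, with medians of 0.0002, -0.01, -0.02 and -0.01. The 13 mRNAs encoded in mitochondria stood at a median of -0.19, and 0 of them passed in edgeR. Of 36 DNA replication genes 3 were lower (UHRF1, RRM2 and MCM6) and 0 higher, against 1.86% lower and 1.63% higher among all genes. Their median was -0.09. Only 3 of the 36 had a positive log2 difference, and in 18 all 3 cimicifuga libraries lay below all 3 of citrus peel, against 8.53% of all genes. RRM2 was lost without citrus peel 1, citrus peel 3 or cimicifuga 3 (edgeR adjusted p up to 0.12), and MCM6 without any single high-dose library other than cimicifuga 3 (up to 0.213). UHRF1, which keeps DNA methylation through replication, had 93.2, 94.3 and 97.7 CPM in cimicifuga and 107, 104 and 114 CPM in citrus peel (-0.19 ± 0.03, edgeR adjusted p = 0.00113), the one call of that list that held without any single library. Of 20 tight junction genes 1 was higher, 2 were lower and 17 were not called, with 11 positive differences and a median of 0.03. PARD3, a polarity protein counted with the tight junction genes and spanning 706 kb of the genome, had 32.7, 33.0 and 34.5 CPM in cimicifuga and 42.5, 40.7 and 43.4 CPM in citrus peel (-0.34 ± 0.04, edgeR adjusted p = 3.46e-05). Of 21 cell adhesion and mesenchymal genes 1 was higher, 2 were lower and 18 were not called. TGFBI, a secreted matrix protein of that list, had 36.7, 38.4 and 39.5 CPM in cimicifuga and 51.4, 47.9 and 46.9 CPM in citrus peel (-0.35 ± 0.04, edgeR adjusted p = 5.97e-05). Of 23 goblet and mucin genes 0 were higher, 2 lower and 21 not called, and 10 had a positive difference. MUC2, the gel-forming mucin of goblet cells, had 24.6, 29.4 and 29.8 CPM in cimicifuga and 34.5, 35.4 and 45.4 CPM in citrus peel (-0.45 ± 0.09, edgeR adjusted p = 0.00578), a call lost without citrus peel 3 (edgeR adjusted p = 0.0565).

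The list of metallothioneins, small proteins that bind zinc and copper, and zinc transport genes had a median of -0.24 over 11 genes. In it 2 were lower and 0 higher, against 1.86% and 1.63% of all genes, and both lower ones were metallothioneins. Only 2 of the 11 had a positive log2 difference, and neither passed. These were MTF1, the zinc-sensing transcription factor (0.02), and the zinc importer SLC39A10 (0.12). The lowest difference was -1.78, in a gene that did not pass. In 4 of the 11 all 3 cimicifuga libraries lay below all 3 of citrus peel, against 8.53% of all genes. MT2A had 16.1, 16.8 and 18.7 CPM in cimicifuga and 24.8, 24.6 and 21.7 CPM in citrus peel (-0.47 ± 0.09, edgeR adjusted p = 0.00369). MT1E had 43.1, 48.3 and 51.4 CPM in cimicifuga and 63.9, 66.4 and 63.3 CPM in citrus peel (-0.44 ± 0.06, edgeR adjusted p = 0.000152). The groups did not overlap in either gene, and both calls held without any single library, although these genes are near-identical copies that share reads. The core of the metal response element, searched as TGCACNC or TGCGCNC on both strands, was present in 29.3% of all promoters and in 4 of the 6 members of this list with a promoter. MT2A held 8 matches, none of which overlapped another, and its window is shown for that number, with every match in capitals.
MT2A, chr16:56608334-56608633, plus strand: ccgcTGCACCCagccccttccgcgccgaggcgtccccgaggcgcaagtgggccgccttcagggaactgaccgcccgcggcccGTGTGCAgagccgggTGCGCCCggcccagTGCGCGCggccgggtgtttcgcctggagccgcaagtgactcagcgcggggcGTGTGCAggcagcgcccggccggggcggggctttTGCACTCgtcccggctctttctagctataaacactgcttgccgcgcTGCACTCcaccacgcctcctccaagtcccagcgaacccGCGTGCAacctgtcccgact

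The 15 largest falls by the naming rule were of mixed function, and 9 of the 15 were genes that span more than 300 kb of the genome. DPYD, which breaks down pyrimidines (chr1:97077743-97995000, minus strand, a span of 917 kb), had 3.86, 4.57 and 3.72 CPM in cimicifuga and 6.67, 6.82 and 6.88 CPM in citrus peel (-0.74 ± 0.10, edgeR adjusted p = 7.53e-05). DPH6, of diphthamide synthesis (329 kb), had 6.56, 6.20 and 7.69 CPM in cimicifuga and 12.04, 11.97 and 11.04 CPM in citrus peel (-0.78 ± 0.08, edgeR adjusted p = 5.14e-06). THSD4, a secreted matrix protein (686 kb), had 24.4, 25.1 and 23.8 CPM in cimicifuga and 34.2, 35.7 and 38.0 CPM in citrus peel (-0.56 ± 0.05, edgeR adjusted p = 1.75e-06). Each of the 3 was separated between the extracts by a gap wider than the range within either. NAALADL2 (1372 kb), SHANK2, a scaffold protein (785 kb), FARS2, the mitochondrial phenylalanyl-tRNA synthetase (568 kb), and DOCK4, an activator of small GTPases (480.3 kb), fell by 0.52, 0.70, 0.48 and 0.46 on the log2 scale. MTUS2 (686 kb) fell by 0.48, a call lost without any single one of the 6 libraries (edgeR adjusted p up to 0.147). The falls outside those 9 were in genes that span 1.2 kb (ID1) to 65.5 kb (SLC14A1). RASL11A, a small GTPase of the Ras family (3.4 kb), had 18.04, 19.8 and 18.2 CPM in cimicifuga and 29.9, 29.7 and 30.3 CPM in citrus peel (-0.68 ± 0.05, edgeR adjusted p = 4.5e-08). SLC14A1, a urea transporter, CD200, a ligand that restrains myeloid cells, HOXC4, a homeobox factor, and ID1, an inhibitor of differentiation factors, fell by 0.61, 0.58, 0.48 and 0.48.

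Calls were counted by gene span over the 11032 protein-coding genes with a mean log2 CPM of at least 1. The span classes were chosen after the values had been seen, so they are described without a test. Of 155 genes over 400 kb, 0 were higher and 69 lower in cimicifuga (44.5%), and 91% had a negative log2 difference. From 200 to 400 kb 6 of 547 genes were higher and 83 lower (15.2%), and from 20 to 50 kb 87 of 3131 were higher and 34 lower (1.09%). Genes over 200 kb made up 6.36% of these genes, 53% of the 287 lower calls among them and 2.47% of the 243 higher calls. The median span was 209 kb for genes called lower, 25 kb for genes called higher and 23.9 kb for all genes with a span. The median log2 difference of the 155 longest genes was -0.19, and it was negative within each replicate number, at -0.22, -0.15 and -0.23. Span and exon length, taken as all annotated exons of a gene merged over its transcripts, went together. The median exon length was 7711 bases for genes called lower, 4822 for genes called higher and 4299 for all genes. The length of the transcripts expressed here was not measured. Among genes over 400 kb the median log2 difference was -0.32, -0.18 and -0.19 for exon lengths of 2000 to 4000, 4000 to 8000 and over 8000 bases (9, 37 and 109 genes), while among genes of 20 to 50 kb it was 0.0034, 0.0064 and 0.006 for the same exon lengths.

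Per library, the median deviation of the 155 long genes from their mean over 18 libraries was -0.19, -0.16 and -0.18 in the cimicifuga high-dose libraries and 0.02, 0.01 and 0.03 in citrus peel at the high dose. In the other 12 libraries it lay between -0.01 and 0.08. Against cimicifuga at the low dose the long genes had a median of -0.24, with 74 of 155 lower, and citrus peel high against citrus peel low gave -0.03, with 3 lower. At the medium dose the difference between extracts had a median of -0.04 over the same genes, and at the low dose -0.01. The difference between the high-dose and the low-dose contrast was -0.21 at the median, with 33 of the 155 genes past the test in edgeR. Beside this, RN7SL2 stood at 4.27, 4.51 and 77.8 CPM in the cimicifuga high-dose libraries, their ribosomal protein medians were -0.10, -0.04 and 0.13, and their mitochondrial medians -0.19, -0.18 and -0.11. The other 15 libraries had 3.45 to 114 CPM of RN7SL2, ribosomal medians of -0.07 to 0.12 and mitochondrial medians of -0.27 to 0.17. Citrus peel high had 5.59, 9.94 and 102.7 CPM of RN7SL2. It was called lower in cimicifuga high (-0.56 ± 0.15, edgeR adjusted p = 0.0413), although the groups overlapped. RN7SL1 was called lower too, and both calls were lost without some single library. The part of RNA quality in the long-gene difference was not tested.

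**Figure D3:**
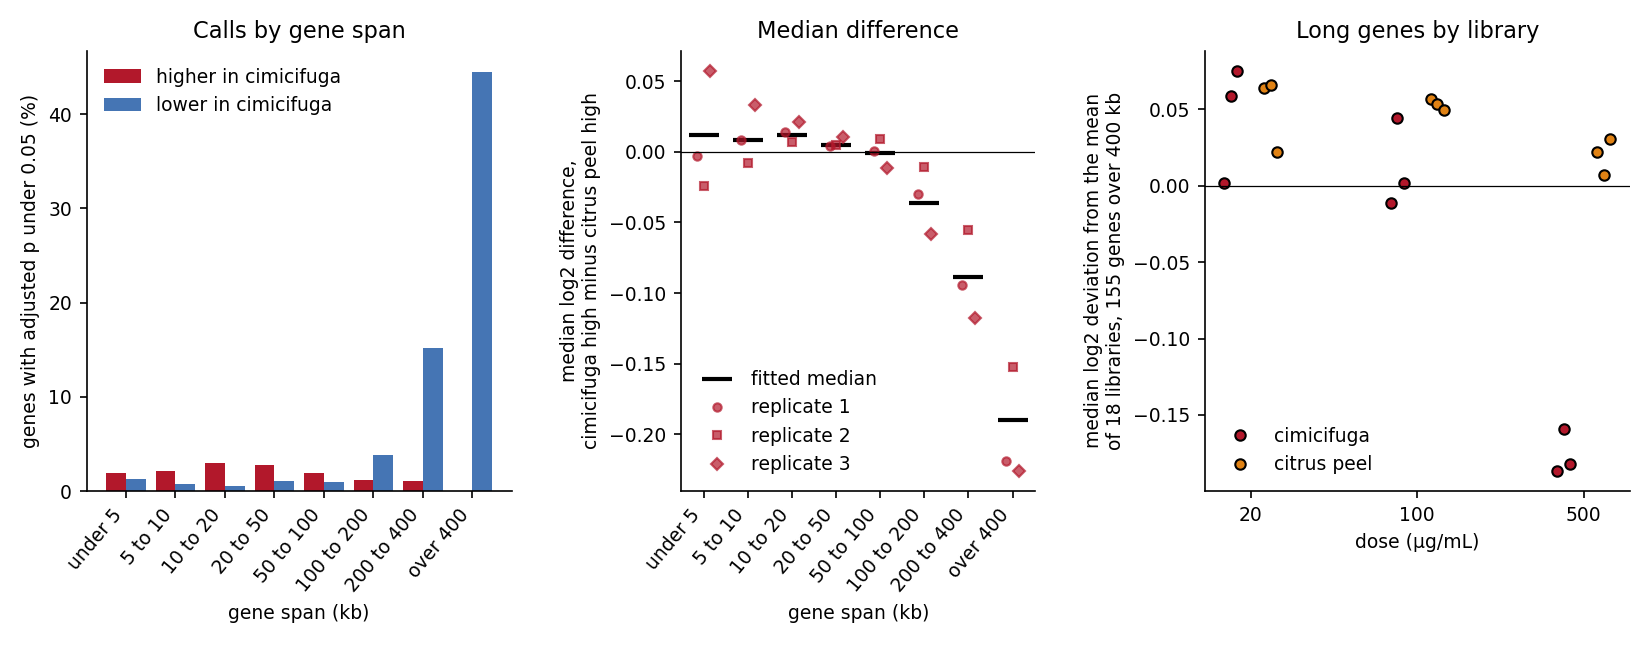
Left, percentage of protein-coding genes with an edgeR adjusted p under 0.05 by gene span (kb), higher (red) and lower (blue) in cimicifuga high than in citrus peel high. Middle, median log2 difference by span, as fitted (black dashes) and within replicates 1, 2 and 3 (symbols). Right, median log2 deviation of 155 genes over 400 kb in each of 18 libraries by dose (µg/mL). The share of lower genes reached 44.5% over 400 kb, and the 3 cimicifuga libraries at 500 µg/mL lay between -0.19 and -0.16, below all others.

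The lower doses of the same 2 extracts show how each level ran with dose. Between 500 and 20 µg/mL 582 genes differed in cimicifuga (3.57%; 1.28% higher and 2.28% lower at the high dose) and 204 in citrus peel (1.25%; 0.508% higher and 0.741% lower), and these comparisons share the high-dose libraries with the one above. GCLM averaged 63.4, 71.2 and 112 CPM in cimicifuga at 20, 100 and 500 µg/mL, and 62.2, 63.1 and 69.5 CPM in citrus peel at the same doses. Of the 12 thioredoxin and NADPH genes 9 were higher at high than at low dose of cimicifuga and 0 in citrus peel, and 7 passed the test of the change in the difference itself. For the aldo-keto reductases the change between doses was 1.15 for AKR1C2 (edgeR adjusted p = 1.98e-06), 1.04 for AKR1C1 (edgeR adjusted p = 0.000184) and 0.69 for AKR1B10 (edgeR adjusted p = 1.07e-06). AKR1B10 was also higher at high than at low citrus peel, at 99.6, 101 and 117 CPM from low to high dose (0.23 ± 0.04, edgeR adjusted p = 0.00755). In vehicle, which enters no test, AKR1B10 had 115.5, 104.3 and 106.5 CPM. That range overlaps the 124.8, 120.4 and 105.4 CPM of citrus peel high. AKR1B10 was 1 of the 2 genes that differed at the medium dose, with 124 CPM in cimicifuga and 101 CPM in citrus peel (0.29, edgeR adjusted p = 0.00984). The other was RPL27, a ribosomal protein gene, at 0.22 (edgeR adjusted p = 0.0411), whose difference at the high dose was -0.12 (edgeR adjusted p = 0.0607). The aryl hydrocarbon receptor list held 8 genes higher at high than at low dose of cimicifuga and 3 in citrus peel (ALDH3A1, UGT1A6 and CYP1B1), and 6 of 9 passed the test of the change. CYP1A1 did not pass that test (1.86, edgeR adjusted p = 0.0642).

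**Figure D4:**
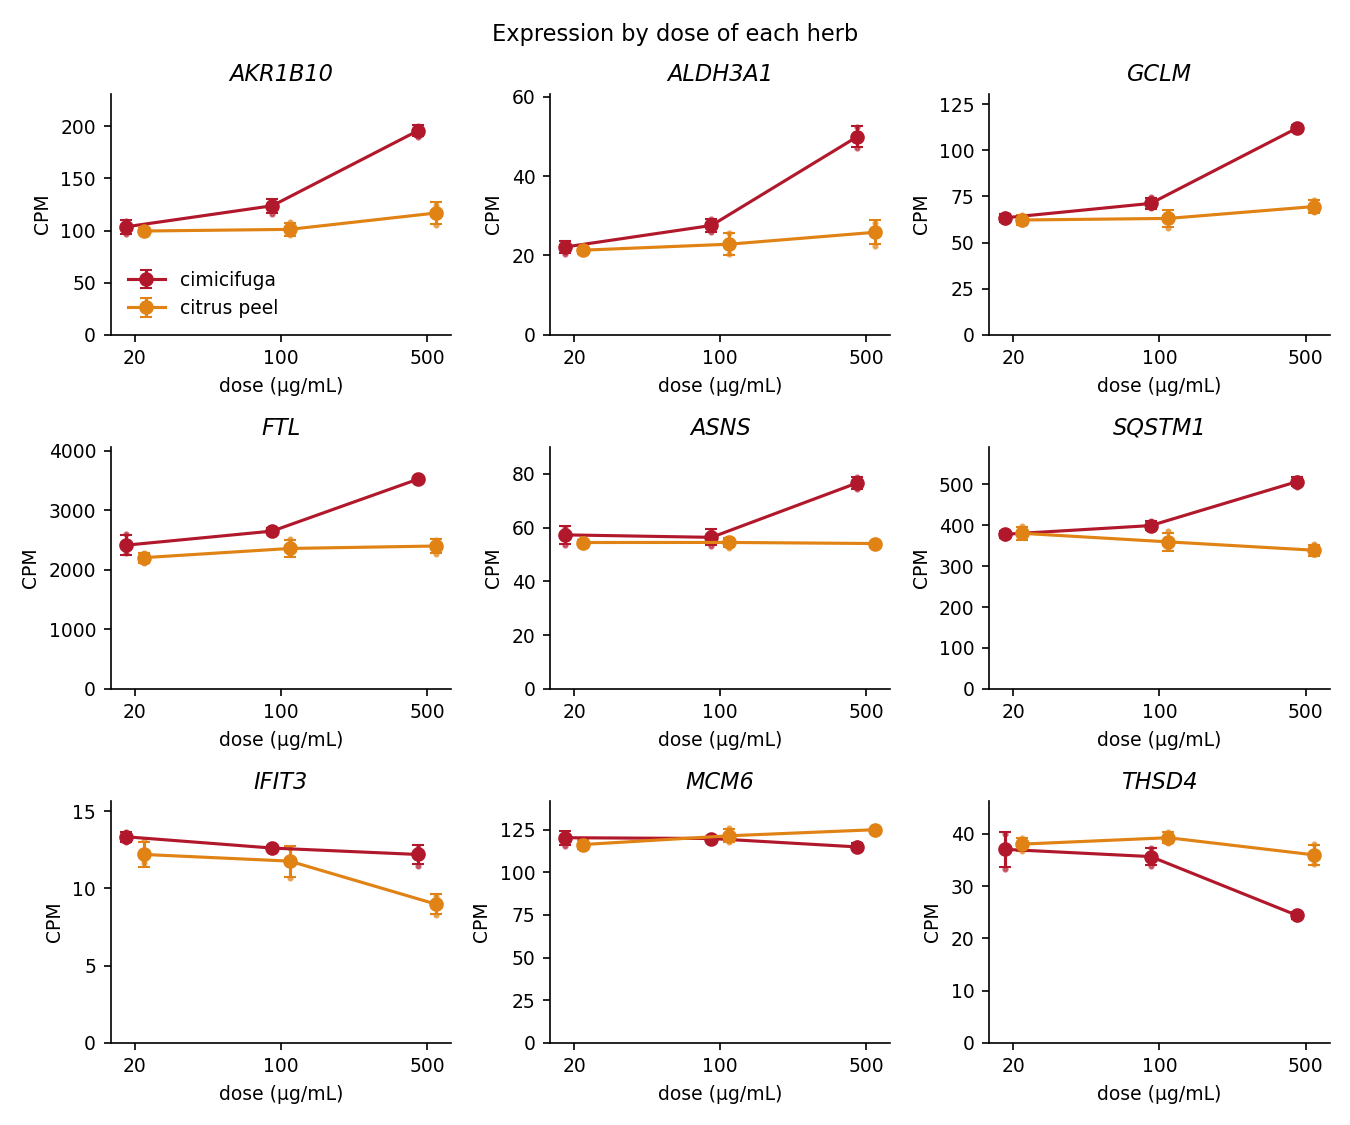
Mean CPM ± SD (n = 3, linear axis from 0; small dots are libraries) of 9 genes at 20, 100 and 500 µg/mL of cimicifuga (red) and citrus peel (orange). At 500 µg/mL AKR1B10 averaged 196 CPM in cimicifuga and 117 CPM in citrus peel, and SQSTM1 was higher than at 20 µg/mL in cimicifuga and lower in citrus peel.

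Other groups differed between doses in citrus peel as well, but these calls depended on single replicates. The citrus peel count of 204 was 22 without replicate 1 of every group and 2 without replicate 2. Calls of single genes between doses were not followed with libraries left out. Of all genes 0.508% were higher and 0.741% lower at high than at low citrus peel, and 1.28% and 2.28% in cimicifuga. SQSTM1 averaged 378, 399 and 506 CPM in cimicifuga at 20, 100 and 500 µg/mL and 380.2, 359 and 339 CPM in citrus peel. It rose by 0.42 between low and high cimicifuga (edgeR adjusted p = 9.91e-08) and fell by 0.17 in citrus peel (edgeR adjusted p = 0.0157), and the change of the difference was 0.59 (edgeR adjusted p = 9.05e-07). Of the 31 autophagy and lysosome genes, 4 were lower and 0 higher at high than at low citrus peel, and 2 were higher and 1 lower in cimicifuga. Between low and high dose 4 of the 31 interferon genes fell in cimicifuga and 13 in citrus peel, with medians of -0.20 and -0.34. IFIT3 averaged 13.3, 12.6 and 12.2 CPM from low to high cimicifuga and 12.2, 11.8 and 8.99 CPM from low to high citrus peel. The change of the difference passed for 0 of the 31 genes in edgeR, so a different fall in the 2 extracts was not shown for any single gene (1778 of all genes had an unadjusted p under 0.05 for this change, and DESeq2 called 128). The per-library list median stood at -0.10 to 0.03 in cimicifuga high and -0.28 to -0.20 in citrus peel high, with the low doses at 0.04 to 0.20 and -0.03 to 0.11. Of the 36 DNA replication genes 6 were higher at high than at low citrus peel and 0 in cimicifuga, and their library medians were -0.03 to 0.02 in cimicifuga high and 0.06 to 0.08 in citrus peel high. CDKN1A, an inhibitor of cyclin-dependent kinases, had a level of 17.5 CPM in cimicifuga high, near the 17.1 CPM of cimicifuga low, and 14.1 CPM in citrus peel high, against 17.4 CPM in citrus peel low; its high-dose difference was 0.31 ± 0.05 (edgeR adjusted p = 0.00166). Of 24 cholesterol synthesis genes 7 were lower at high than at low dose of cimicifuga and 5 in citrus peel.

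**Figure D5:**
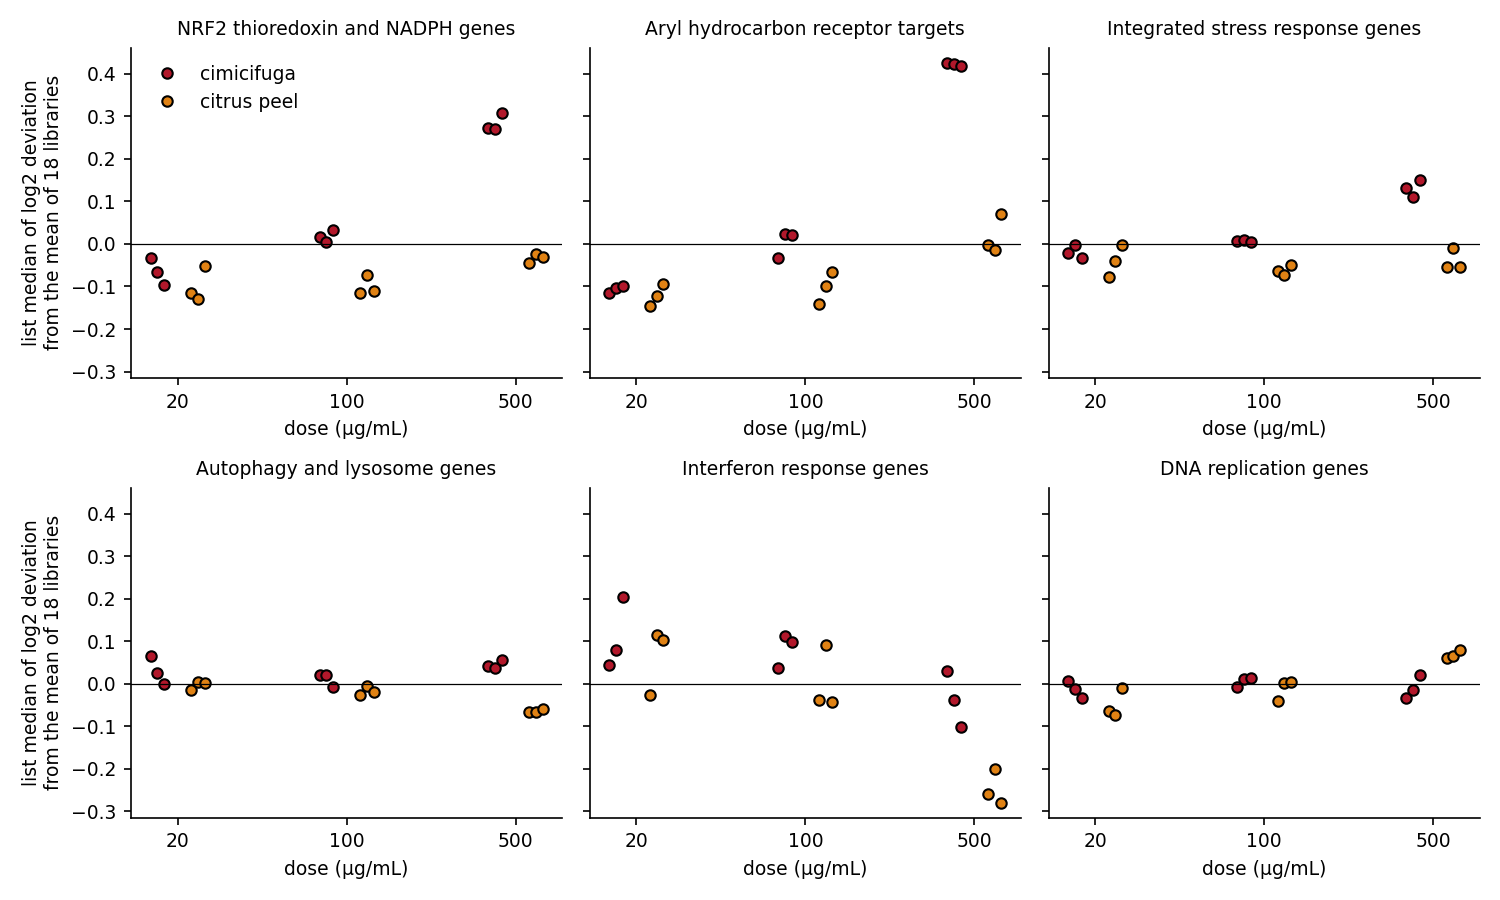
Median over the members of 6 gene lists of the log2 deviation from the mean of 18 libraries (log2 of CPM + 0.5), for each library at 20, 100 and 500 µg/mL of cimicifuga (red) and citrus peel (orange). At 500 µg/mL the aryl hydrocarbon receptor list stood at 0.42 to 0.43 in cimicifuga and -0.01 to 0.07 in citrus peel, and the interferon list at -0.10 to 0.03 in cimicifuga and -0.28 to -0.20 in citrus peel.

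The genes that passed the test of the change with dose but in the negative direction included short and long genes. Fewer passed in this direction without replicate 1 of every group (11) or without replicate 2 (2). RASL11A averaged 29.1, 24.6 and 18.7 CPM in cimicifuga at 20, 100 and 500 µg/mL and 29.5, 28.1 and 30.0 CPM in citrus peel, a change of -0.67 (edgeR adjusted p = 1.84e-05). SLC14A1 changed by -0.57 (edgeR adjusted p = 0.011) and MT2A by -0.58 (edgeR adjusted p = 0.0324). DPYD changed by -0.87 (edgeR adjusted p = 0.00232) and DPH6 by -0.73 (edgeR adjusted p = 0.0017). In vehicle, whose libraries belong to another set of codes and enter no test, HMOX1 had 10.1, 8.59 and 9.60 CPM, NQO1 556, 494 and 512 CPM and THSD4 32.0, 36.2 and 36.7 CPM, ranges that overlap those of citrus peel at the high dose. CYP1B1 had 45.7, 49.1 and 53.3 CPM in vehicle and CYP1A1 0.114, 0.407 and 0.362 CPM, in both genes below all 3 citrus peel high-dose libraries.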

How the data were processed

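Total RNA of HT29 cells was sequenced as directional libraries with 100 bp paired reads, per the labels' protocols. The authors deposited expected counts per gene; the submitters' processing notes name RSEM 1.3.3, STAR 2.7.3a, Trim Galore 0.6.5, FastQC 0.11.9 and the build GRCh38/hg38. Settings and annotation: not given in the sources used here. RSEM divides reads among near-identical genes. The table held 60675 genes and 270 columns, of which 210 matched no sample here and were not used. Expected counts (8.68% of values not whole) were rounded. edgeR 4.0.16 (R 4.3.3) fitted a quasi-likelihood model with TMM scaling, filterByExpr by group and the replicate number as a block to the 18 libraries of set 5, leaving 16325 genes and 10 residual degrees of freedom. P-values were adjusted by Benjamini-Hochberg over all genes, with a threshold of 0.05. CPM are counts scaled to a common library size after TMM. The 15 largest rises and falls named had an adjusted p under the threshold, a mean log2 CPM of at least 1, no overlap between extracts and a gene name that is not a clone, antisense, long intergenic or pseudogene name; members of 40 gene lists were also named. Members, lists and this rule were chosen with earlier results of these data known. Gene spans came from GENCODE 29 (99.3% of tested genes) and promoters from RefSeq. Alternatives were no block, the compared libraries alone, 57 libraries, RLE scaling, DESeq2 1.42.0, other filters, a batch term and leaving out libraries or replicates. Some named genes are not reported here.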

Additional observations from a re-analysis of the deposited data

Results flagged for a closer look

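The difference between cimicifuga and citrus peel was not the same at the high and the low dose for 129 genes (edgeR quasi-likelihood test of the change, adjusted p under 0.05). The change of the log2 difference was 1.15 for AKR1C2, 1.04 for AKR1C1, 0.94 for HMOX1, 0.91 for ALDH3A1 and 0.87 for ABCG1. In the negative direction it was -0.87 for DPYD, -0.73 for DPH6, -0.67 for RASL11A, -0.58 for MT2A and -0.57 for SLC14A1. Without replicate 1 of every group 27 genes passed, 11 of them negative, and without replicate 2 16 passed, 2 of them negative. Whether each gene named here kept its call was not examined.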

How the results depend on the processing

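The count of genes differing at the high dose was 569. It was 265 with the 6 compared libraries only and a replicate block, 254 with them and no block, and 146 in a fit of 57 libraries without block, which called 105 higher and 41 lower. Without the replicate block in the 18 libraries it was 393, and leaving out a library or replicate gave 173 to 432. The replicate number entered the fit as a block because the comparison was defined with it. The deviations of same-numbered high-dose libraries correlated at 0.062, 0.0329 and 0.0833, under the 0.1 required to call the libraries paired. These values cannot show that the number carries no shared difference, since the replicate-3 libraries stood apart from the rest. At the medium dose, where 2 genes passed, the count was 0 with no block, 8 and 0 in the compared libraries with and without block, 0 with 57 libraries, 11 by DESeq2, 94 with no filter on low counts and 1 with a batch term, and 0 to 3 with a library or replicate left out. At the low dose, where 0 passed, it was 1 and 2 in the compared libraries with and without block and 96 with no filter. The change with dose (129 genes) gave 73 without block, 60 and 39 in the compared libraries with and without block, 19 with 57 libraries, 306 with no filter and 16 to 160 with libraries left out. The 160 came without replicate 3 of every group, and 57 of them were among the 129. High against low cimicifuga (582) gave 134 and 274 in the compared libraries with and without block, 149 with 57 libraries and 142 to 621 with libraries left out. High against low citrus peel (204) gave 80 without block, 43 and 9 in the compared libraries with and without block, 11 with 57 libraries, 448 with no filter and 2 to 156 with libraries left out. The median of genes over 400 kb was -0.19, and -0.11 for genes over 200 kb, a limit chosen after seeing the data; leaving out libraries gave -0.23 to -0.19. Of 133 named genes 49 kept their call or lack of one in every setting, and 0 reversed. The cause of these changes was not tested.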
